A study of Mus musculus with 9 samples.

Results

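Microglia, the resident macrophages of the brain, are described by 2 sets of genes. The homeostatic set holds genes of the resting, surveying cell: P2ry12, P2ry13, Tmem119, Cx3cr1, Csf1r, Sall1, Siglech, Gpr34, Fcrls, Olfml3, Selplg, Itgam, Laptm5 and Aif1. The disease-associated set holds genes of the phagocytic, lipid-handling state found around plaques, dying neurons and damaged myelin: Trem2, Tyrobp, Cst7, Lpl, Gpnmb, Itgax, Clec7a, Spp1, Cd9, Cd63, Cd68, Cd14, Ctsb, Ctsd, Ctss, Ctsz, Lgals3, Fth1, Cd52, Csf1, Cd74 and Tlr2. Of these 36 genes, 35 had a row in the deposited table, and 33 had a mean of at least 10 over the 9 libraries, the minimum for testing. They were 14 of 14 homeostatic and 19 of 22 disease-associated genes, out of 16196 genes tested. Cst7 had no row. The closest genes above the minimum were Cd52, Lgals3 and Tlr2, with means of 16.9, 18.0 and 20.8 normalised counts. Itgax and Clec7a were below it, with means of 8.54 and 6.32.

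RNA was sequenced from the whole hippocampus of adult male mice, 1 library per animal, in 4 Nestin;BrafKE/+ and 5 Braf+/+ mice of the labelled strain C57BL/6N. Nestin;BrafKE/+ mice carry 1 Braf allele with K499E, a variant of cardio-facio-cutaneous syndrome, switched on by a Nestin-driven Cre recombinase, and the controls are wild-type. Whether the controls carry the Cre transgene is not stated in the sources used here. The allele was made in embryonic stem cells of a 129S6 and C57BL/6 hybrid. The table holds 1 value per gene and does not read the altered base, so it offers no check of the genotype labels.

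As background, Nestin-Cre acts in neural stem cells, which give rise to neurons, astrocytes and oligodendrocytes. Microglia descend from yolk sac progenitors and lie outside that lineage. They depend on the receptor Csf1r and on neuron- and glia-derived ligands, and in the adult brain TGF-beta signalling and the factors PU.1 and Sall1 maintain the homeostatic genes. The passage to the disease-associated state lowers P2ry12, Tmem119 and Cx3cr1 and raises lysosomal, lipid and adhesion genes. It depends in part, not in every step, on the lipid receptor Trem2 and its signalling adaptor Tyrobp. The comparison of the 2 genotypes addresses whether RNA of either set stood at another level in the whole tissue.

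All 14 homeostatic genes passed the minimum, with means from 71.4 (Aif1) to 1704 (Csf1r) normalised counts, as did 20 of 20 other microglia-enriched genes, so the tissue carried the defining genes of microglia. Compared per kilobase of merged exon in the controls, the order of levels ran from Fth1 (10837 ± 929 normalised counts per kb, SD, n = 5), Ctsd (2189 ± 182), Ctsb (1211 ± 44.8) and Cd9 (478 ± 39.3), all of which other brain cells also make, down to P2ry12 (258 ± 6.59), the highest homeostatic gene. Cd63 (227 ± 21.4), Csf1r (219 ± 7.94), Ctss (206 ± 14.3), Cx3cr1 (197 ± 7.44) and Tyrobp (192 ± 20.1) came next, and each overlapped its neighbour in that order. At the lower end were Gpnmb (11.4 ± 3.67), Lgals3 (9.96 ± 2.86), Tlr2 (3.89 ± 0.981), Clec7a (1.97 ± 0.163) and Itgax (1.32 ± 0.516), all of the disease-associated set. Merged exon spans every annotated transcript of a gene, 682 bases for Tyrobp and 12225 for Lpl, so this order depends on the annotation. Without division by length, Csf1r was the highest homeostatic gene.

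The promoters of 3 disease-associated genes are printed for later reference: Gpnmb because it had the largest difference of the set, and Ctsd and Ctss because searched motifs lay close to their start. The sequences are RefSeq windows on GRCm38.p6, each from 250 bases before to 30 after the annotated start and 280 bases long, written 5′ to 3′ on the strand of the gene. They span chr6:49036268-49036547 on the plus strand for Gpnmb, chr7:142387798-142388077 on the minus strand for Ctsd and chr3:95526536-95526815 on the plus strand for Ctss. Capitals mark the motifs found.
Gpnmb: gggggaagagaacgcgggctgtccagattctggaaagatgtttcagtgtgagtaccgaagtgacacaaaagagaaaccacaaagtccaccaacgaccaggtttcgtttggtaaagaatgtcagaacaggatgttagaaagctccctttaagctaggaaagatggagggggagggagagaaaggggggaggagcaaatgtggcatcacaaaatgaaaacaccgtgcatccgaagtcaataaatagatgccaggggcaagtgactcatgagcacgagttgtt
Ctsd: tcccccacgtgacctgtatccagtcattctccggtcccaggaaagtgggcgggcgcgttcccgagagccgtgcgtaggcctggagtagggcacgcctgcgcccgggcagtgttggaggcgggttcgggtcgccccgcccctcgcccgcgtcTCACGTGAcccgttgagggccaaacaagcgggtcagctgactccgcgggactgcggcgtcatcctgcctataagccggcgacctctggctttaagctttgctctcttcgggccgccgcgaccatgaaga
Ctss: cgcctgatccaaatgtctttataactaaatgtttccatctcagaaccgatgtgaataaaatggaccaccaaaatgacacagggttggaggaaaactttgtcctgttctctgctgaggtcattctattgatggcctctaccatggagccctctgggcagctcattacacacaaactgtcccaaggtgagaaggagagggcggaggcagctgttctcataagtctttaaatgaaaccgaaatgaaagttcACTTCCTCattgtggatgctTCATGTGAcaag
In Ctsd the marked letters are TCACGTGA, the core of the CLEAR element of lysosomal genes, beginning 99 bases before the start. In Ctss they are ACTTCCTC, the reverse complement of the PU.1 motif GAGGAAGT, beginning 2 bases before the start, and TCATGTGA, an E-box variant bound by MITF, 18 bases after it. On both strands of all 32851 promoter windows, which run to 50 bases after the start, GAGGAAGT was present in 3.20%, TCACGTGA in 0.974% and TCATGTGA in 0.986%, and a window may hold more than 1 of them. Among the 26 genes of the 2 sets with an entry (10 homeostatic and 16 disease-associated), GAGGAAGT was in Ctss and Spp1, TCACGTGA in Ctsd and Siglech, and TCATGTGA in Ctss. None of the 3 was in the Gpnmb window. A match of letters is a description and not a measured binding site.

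Among all 16196 genes tested, 466 (2.88%) differed between genotypes at an adjusted p under 0.05, the threshold used throughout (limma, modelling genotype beside the series to which a library's name belongs, Benjamini-Hochberg adjustment). They were 246 genes higher in Nestin;BrafKE/+ (1.52%) and 220 lower (1.36%). An unadjusted p under 0.05 was given to 2991 genes (18.5%). The values of all 4 mutant libraries lay above all 5 controls for 1234 genes (7.62%) and below all 5 for 1316 (8.13%). The library names fall into 3 series, A (mutant 1 with controls 1 to 3), B (mutants 2 and 3 with control 4) and C (mutant 4 with control 5), by replicate number, and differences are also given within each series. In bulk tissue, fewer cells of a type and less RNA per cell cannot be told apart, and this holds for each gene below.

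None of the 14 homeostatic genes passed the threshold in limma. An unadjusted p under 0.05 was given to 4 (28.6%, against 18.5% of all genes). All 4 had higher values in Nestin;BrafKE/+: Fcrls, Cx3cr1, Csf1r and Laptm5. The log2 fold change was above 0 for 11 of the 14 and below 0 for 3, whereas 50.1% of all genes tested were above 0. The median of the set was 0.12 on the log2 scale (range -0.12 to 0.36), against 0.00033 over all genes tested. In 5 of the 14 genes (35.7%) every mutant library exceeded every control, against 7.62% of all genes. In 0 the reverse held, against 8.13% of all genes. In 9 of 14 (64.3%) the difference had the same sign in all 3 series, against 36.6% of all genes. Without the series term in the fit, Fcrls, Cx3cr1, Csf1r and Laptm5 passed the threshold (adjusted p from 0.00667 to 0.0168), as did 2260 of all genes tested (14.0%).

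Csf1r, the receptor for the survival signals Csf1 and Il34, measured 1829, 1796, 1885 and 1779 normalised counts in Nestin;BrafKE/+ replicates 1 to 4, and 1539, 1596, 1686, 1579 and 1650.4 in Braf+/+ replicates 1 to 5. All mutant libraries were above all controls. The log2 fold change was 0.18 (SE 0.05, unadjusted p = 0.00708, adjusted p = 0.111 in limma). Its ligand genes are Csf1, a member of the disease-associated set, and Il34, made by neurons, for which limma gave -0.05 (SE 0.09, adjusted p = 0.808).

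Cx3cr1, the receptor for the neuronal chemokine Cx3cl1, measured 1097, 1044, 1096 and 1041 normalised counts in the mutant libraries and 900.2, 870.1, 958, 916 and 943 in the controls. The groups did not overlap, and the means were 1069.6 ± 31.3 (SD, n = 4) and 917 ± 34.7 (n = 5). In the fit it came to 0.22 on the log2 scale (SE 0.06, unadjusted p = 0.00378, adjusted p = 0.0801 in limma), the smallest adjusted p of the homeostatic set. Series A, B and C taken alone gave 0.27, 0.22 and 0.14. Cx3cl1 itself gave 0.09 (SE 0.04, adjusted p = 0.308).

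Fcrls, an Fc receptor-like gene that marks mouse microglia, had the highest log2 fold change of the set. Its normalised counts were 585, 484, 536 and 514 in the mutants and 369.6, 372, 462, 445 and 424 in the controls. The lowest mutant stood above the highest control, and the log2 fold change was 0.36 (SE 0.10, unadjusted p = 0.00554, adjusted p = 0.0979 in limma). Within series it was 0.55, 0.19 and 0.28 in A, B and C.

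Laptm5, a lysosomal membrane protein of blood-derived and microglial cells, measured 810.2, 802, 814 and 792 normalised counts in the mutants and 663, 723, 702, 693 and 709 in the controls. The mutant libraries lay within a narrow band above every control. In log2 terms the fit gave 0.20 (SE 0.06, unadjusted p = 0.00683, adjusted p = 0.109 in limma). Aif1, which encodes the microglial antigen Iba1, measured 73.3, 79.5, 84.9 and 73.8 in the mutants and 66.6, 70.0, 65.7, 59.3 and 70.1 in the controls. Here too the groups did not overlap, while the fitted log2 fold change of 0.23 had an SE of 0.15 and an adjusted p of 0.470. In the two-sided exact permutation test over 126 assignments of the genotype, Csf1r, Cx3cr1, Laptm5 and Aif1 each gave p = 0.00794, the smallest it can give, and Fcrls 0.0159. The exact test within series gave p = 0.0417 for all 5, the smallest that 24 assignments allow. Groups without overlap put both exact tests at or near these limits, so the tests restate the non-overlap and add no support. Their p-values are not adjusted over the genes tested.

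Neither purinergic receptor passed the threshold. P2ry12, which senses ATP and ADP and steers microglial processes, measured 802, 784, 828.6 and 793 in the mutants and 857, 802, 817, 819 and 836 in the controls. The values overlapped, and the log2 fold change was -0.04 (SE 0.06, adjusted p = 0.741 in limma), with the sign below 0 in all 3 series. P2ry13, its relative, gave 0.19 (SE 0.11, adjusted p = 0.394), and Gpr34, a lysophosphatidylserine receptor, -0.12 (SE 0.11, adjusted p = 0.594).

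The other homeostatic genes had an unadjusted p above 0.05. Log2 fold changes were 0.06 (SE 0.10) for Tmem119, a membrane protein specific to microglia in brain, 0.01 (SE 0.08) for the transcription factor gene Sall1, 0.02 (SE 0.10) for the lectin gene Siglech and 0.07 (SE 0.10) for Selplg, which encodes a selectin ligand. Itgam, the integrin subunit CD11b, gave -0.08 (SE 0.07), and an annotated gene on the same strand, Gm49368, overlaps its exons. Olfml3, a secreted protein, gave 0.33 with an SE of 0.16 and an adjusted p of 0.311 in limma, and this difference was 0.75 in series A and 0.06 in each of B and C. In the mutant libraries Olfml3 ranged from 285 to 464 normalised counts and in the controls from 258 to 336.

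**Figure D1:**
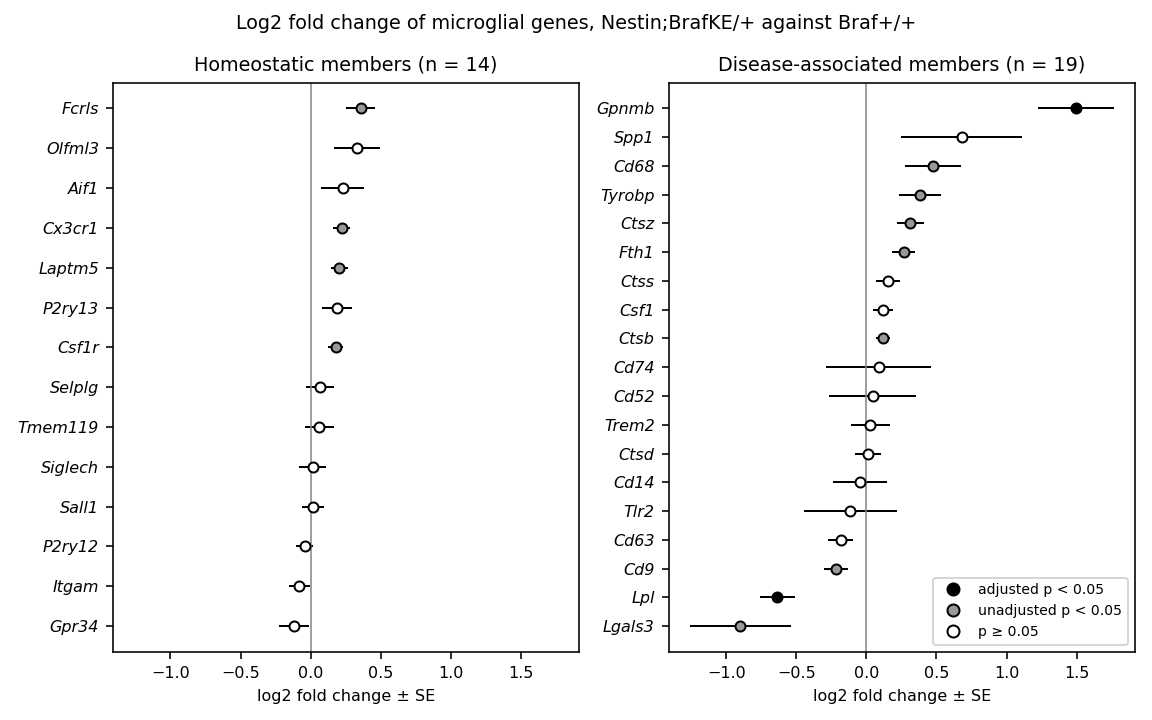
Log2 fold change (x axis, Nestin;BrafKE/+ against Braf+/+, with bars for 1 SE) of the 14 homeostatic and 19 disease-associated genes tested, 1 gene per line, from 4 and 5 libraries. Black points mark the adjusted p under 0.05 of Gpnmb and Lpl, and grey points an unadjusted p under 0.05. The homeostatic genes lie between -0.12 and 0.36 and the disease-associated genes between -0.90 and 1.49.

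In the disease-associated set, Gpnmb rose and Lpl fell past the threshold, 2 of 19 genes tested, against 2.88% of all genes. With the 4 prefixes of the library names as the term in place of the 3 series, neither passed (adjusted p = 0.0527 for Gpnmb and 0.0530 for Lpl). A further 7 had an unadjusted p under 0.05, with Ctsz, Fth1, Tyrobp, Cd68 and Ctsb higher and Cd9 and Lgals3 lower, so 9 of 19 reached that level against 18.5% of all genes. The log2 fold change was above 0 for 13 of 19, the median was 0.088 and the range -0.90 to 1.49. Mutant libraries were all above the controls for 4 genes (Csf1, Ctsb, Gpnmb and Tyrobp) and all below for 1 (Lpl). Together 26.3% of the genes did not overlap, against 15.7% of all genes. The sign was the same in all 3 series for 7 of 19 genes (36.8%), close to the 36.6% of all genes. Without the series term 5 of 19 passed, against 14.0% of all genes in that fit: Gpnmb, Lpl, Ctsz, Fth1 and Tyrobp.

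Gpnmb encodes a transmembrane glycoprotein of phagocytic, lipid-laden macrophages whose gene is a known target of MITF. It measured 256, 227, 224 and 139.6 normalised counts in Nestin;BrafKE/+ replicates 1 to 4, and 96.4, 56.0, 56.7, 61.3 and 107 in Braf+/+ replicates 1 to 5. The groups did not overlap, and the nearest values were those of the 2 series C libraries, mutant replicate 4 and control replicate 5. The means were 211 ± 50.1 (SD, n = 4) and 75.5 ± 24.3 (n = 5), and the log2 fold change was 1.49 (SE 0.27, adjusted p = 0.0179 in limma). Taken one series at a time, the genotypes differed by 1.91 (A), 1.86 (B) and 0.38 (C). The exact permutation test gave p = 0.00794 over all assignments and 0.0417 within series, the smallest each can give, which restates that the groups did not overlap. The call was lost without Nestin;BrafKE/+ replicate 1 (log2 fold change 1.23, adjusted p = 0.143), without replicate 3 (1.46, 0.0561) or without Braf+/+ replicate 4 (1.30, 0.128).

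On GRCm39 Gpnmb lies on chromosome 6 at 49013426-49047863, 9.31 Mb from Braf, close enough for sequence linked to the targeted allele to be inherited with it. An effect of such linked sequence and one of the allele cannot be told apart in these mice. Of 45 genes tested between Braf and Gpnmb, 2 passed the threshold (Pdia4 and Zyx), and of 24 within 1 Mb of Gpnmb, 1 did (Npy). Among all genes tested, 2.88% passed. Cd9, also on chromosome 6, lies 85.7 Mb from Braf and Clec7a 89.7 Mb.

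Lpl, lipoprotein lipase, releases fatty acids from triglyceride-rich particles and in the hippocampus is made by neurons as well as by activated microglia. It measured 810.2, 639, 573 and 659 normalised counts in the mutants and 1061, 924, 924, 1248 and 1045 in the controls. Every mutant was below every control. The means were 670.3 ± 100.2 (SD, n = 4) and 1040.5 ± 133 (n = 5), and the fitted log2 fold change was -0.64 (SE 0.12, adjusted p = 0.0248 in limma), a fall. Series A, B and C separately gave -0.26, -1.04 and -0.66. Without Braf+/+ replicate 4, the library with the highest Lpl, the log2 fold change was -0.42 and the adjusted p 0.133. Leaving out Nestin;BrafKE/+ replicate 3 or 4 or Braf+/+ replicate 1 or 5 also lost the call, with adjusted p-values of 0.0596, 0.0691, 0.0504 and 0.0696. Braf+/+ replicate 4 was also rich in choroid plexus RNA, and Braf+/+ replicate 2, the library richest in it, measured 924 for Lpl. With the level of choroid plexus markers as a covariate Lpl stood at -0.59 (adjusted p = 0.0608 in limma). The part of choroid plexus RNA in the Lpl difference was not tested beyond this fit. Gpnmb and Lpl, both counted among the lipid genes of the set, stood on opposite sides.

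**Figure D2:**
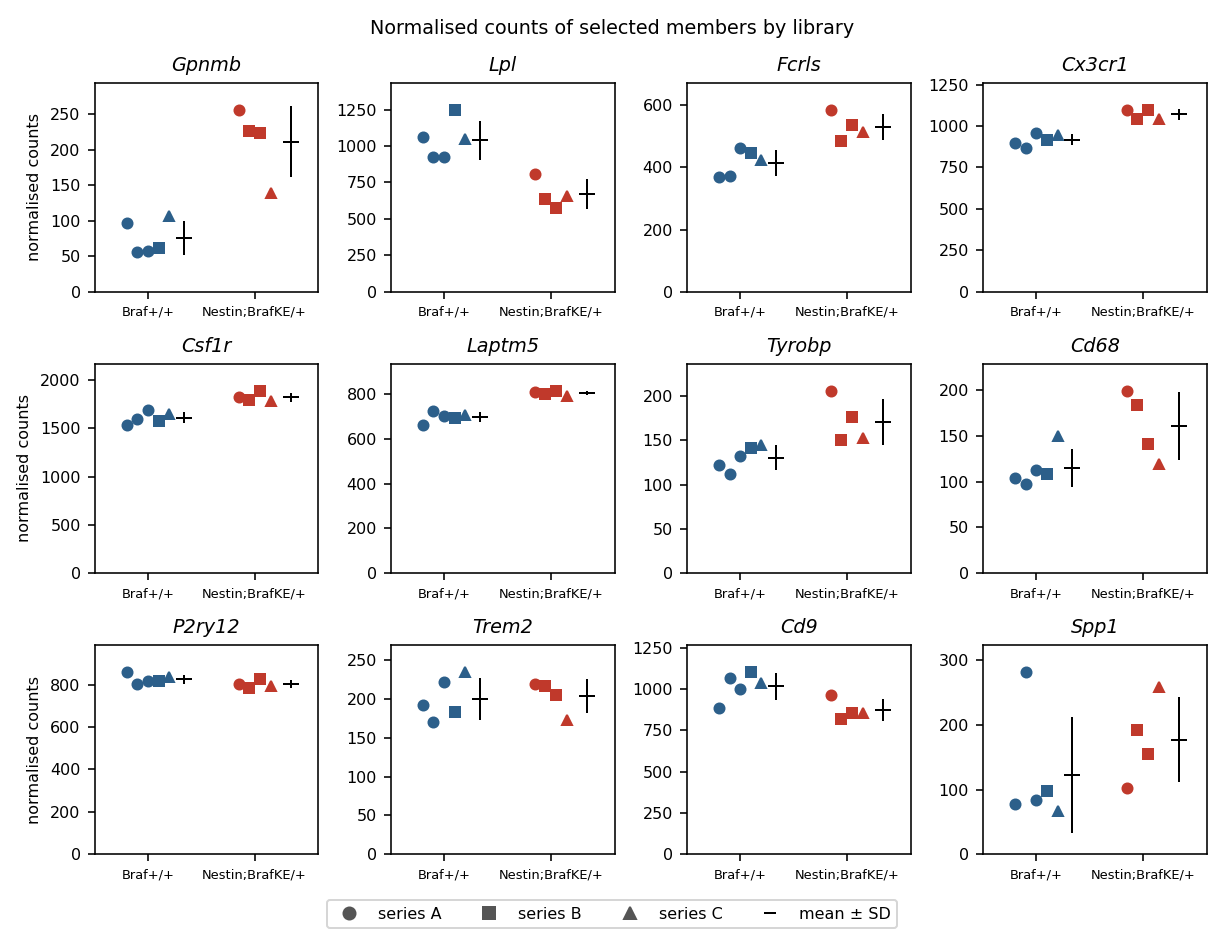
Normalised counts (y axis, from 0) of 12 genes in each library, with Braf+/+ in blue and Nestin;BrafKE/+ in red, symbols for the 3 series of library names, and the mean ± SD beside the points (n = 5 and 4). Gpnmb, Fcrls, Cx3cr1, Csf1r, Laptm5 and Tyrobp are higher in every mutant library than in any control, Lpl is lower in every one, and P2ry12, Trem2, Cd68, Cd9 and Spp1 overlap.

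Trem2 encodes a lipid receptor on which the disease-associated state in part depends. It measured 219.9, 217, 206 and 172 normalised counts in the mutants and 192, 170.0, 222, 183 and 234 in the controls. The values overlapped throughout, and the log2 fold change was 0.03 (SE 0.14, adjusted p = 0.937 in limma). Tyrobp, the adaptor that carries the Trem2 signal, measured 206, 150.0, 177 and 153 in the mutants and 122, 112, 132, 142 and 145 in the controls. Every mutant was above every control, and the log2 fold change was 0.38 (SE 0.15, unadjusted p = 0.0268, adjusted p = 0.201). Series A gave 0.75, series B 0.20 and series C 0.07, and mutant replicate 1, the highest library, is the mutant of series A. Csf1, a ligand of Csf1r, ranged from 503 to 512 in the mutants and from 451 to 493 in the controls, a log2 difference of 0.12 (SE 0.07, adjusted p = 0.405).

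The set holds 4 cathepsins, proteases of the lysosome, and none passed the threshold in the fit reported. Ctsz measured 821, 699, 801 and 656 normalised counts in the mutants and 561, 576, 590.4, 586 and 674 in the controls, with an overlap only between mutant replicate 4 and control replicate 5. Its log2 fold change was 0.31 (SE 0.10, unadjusted p = 0.00727, adjusted p = 0.113 in limma), and it was -0.04 in series C. With either series C library left out it was 0.44 and passed the threshold (adjusted p = 0.0354 and 0.0350). Ctsb measured 10569.5, 9945, 10179 and 9697 in the mutants and 8873, 9555, 9019.8, 9357 and 9678 in the controls. These groups did not overlap, though by a small margin, and the log2 fold change was 0.12 (SE 0.05, unadjusted p = 0.0375, adjusted p = 0.238). Ctsd, the gene with the CLEAR core in its promoter and with exons overlapped on the same strand by Gm49369, measured 7147, 5559, 6242 and 5582 in the mutants and 5361, 6005, 5831, 6482 and 6605 in the controls. Mutant replicate 1 lay above every control and the other mutants within their range, at a log2 difference of 0.01 (SE 0.09, adjusted p = 0.957), and Ctss gave 0.15 (SE 0.08, adjusted p = 0.378).

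Cd68, a glycoprotein of the lysosomal membrane used as a mark of phagocytic activity, measured 199, 184, 141 and 119.6 normalised counts in the mutants and 104, 97.0, 112, 108 and 150.1 in the controls. Control replicate 5 lay above mutants 3 and 4. The log2 fold change was 0.47 (SE 0.20, unadjusted p = 0.0376, adjusted p = 0.238 in limma), and the series gave 0.92 (A), 0.56 (B) and -0.32 (C). Fth1, the iron-storing ferritin heavy chain, measured 43763, 49009, 49252 and 41373 in the mutants and 38457, 38711, 38533, 32964 and 42062 in the controls. All mutants but replicate 4 were above all controls. Limma gave a log2 fold change of 0.27 (SE 0.08, unadjusted p = 0.00955, adjusted p = 0.127), and without either series C library 0.37 (adjusted p = 0.0486 and 0.0480). Processed pseudogenes that resemble Fth1 make its counting less certain.

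Neither tetraspanin of the set passed the threshold. Cd9, a tetraspanin of the plasma membrane, measured 966, 821, 852 and 851 normalised counts in the mutants and 882, 1063, 997, 1099.7 and 1036 in the controls. Mutant replicate 1 lay above control replicate 1 and the other mutants below all controls. On the log2 scale the difference was -0.22 (SE 0.09, unadjusted p = 0.0269, adjusted p = 0.201 in limma). Cd63, the tetraspanin of endosomes, gave -0.18 (SE 0.09, adjusted p = 0.318). Both genes were highest in Braf+/+ replicates 2 and 4, and these were also the libraries with the most choroid plexus RNA: the summed normalised counts of 9 choroid plexus markers ranged from 4745 to 393681 in the controls and from 1499 to 24693 in the mutants. With the level of those markers as a covariate, the log2 fold change of Cd9 was -0.13 (adjusted p = 0.466 in limma) and that of Cd63 -0.08 (adjusted p = 0.680). This covariate was added after seeing the data, and the part of choroid plexus RNA in the values of Cd9 and Cd63 was not tested beyond it.

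Lgals3, galectin-3, had the lowest log2 fold change of the set at low values. It measured 12, 7.95, 17.0 and 9.97 normalised counts in the mutants and 29.8, 13, 26.9, 20.1 and 25 in the controls. Only control replicate 2 fell into the range of the mutants, and the log2 fold change was -0.90 (SE 0.36, unadjusted p = 0.0303, adjusted p = 0.214 in limma). Its sign was below 0 in all 3 series. In contrast Gpnmb, which often accompanies Lgals3 in phagocytic macrophages, was higher in every mutant library.

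Spp1, osteopontin, is secreted by activated microglia and by other cells, and Gm42793 overlaps its exons on the same strand. It ranged from 102 to 259 normalised counts in the mutants and from 67.1 to 281 in the controls, the highest value being that of control replicate 2. In limma it came to 0.68 (SE 0.43, adjusted p = 0.440) as a log2 fold change, and the series gave -0.27, 0.81 and 1.93. Without Braf+/+ replicate 2, the library richest in choroid plexus RNA, it was 0.94 (adjusted p = 0.0869). With the level of the choroid plexus markers as a covariate it was 1.05 (adjusted p = 0.265). In series C, with 1 library of each genotype, 7 of 19 genes of the set were above 0. Among them were Spp1, Cd74 (0.79) and Gpnmb (0.38), while Trem2 (-0.44), Cd68 (-0.32) and Tlr2 (-0.81) were below 0.

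The antigen-presentation and innate-recognition genes of the set had an unadjusted p above 0.05. Log2 fold changes were 0.09 (SE 0.37) for Cd74, the invariant chain of MHC class II, 0.05 (SE 0.31) for the surface glycoprotein gene Cd52, -0.05 (SE 0.20) for the lipopolysaccharide co-receptor gene Cd14 and -0.11 (SE 0.33) for Tlr2, a receptor for bacterial lipoproteins. The 2 genes below the minimum mean are given as values without a test. Itgax, the integrin CD11c, measured 12, 10.9, 15.0 and 6.98 in the mutants and 6.96, 4.00, 6.97, 4.02 and 10 in the controls. Clec7a, the beta-glucan receptor Dectin-1, measured 7.03, 5.96, 9.98 and 7.98 in the mutants and 5.96, 5.00, 4.98, 5.02 and 5.00 in the controls. In both the mutant libraries were on the whole higher, at levels where 1 normalised count is a large step.

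**Figure D3:**
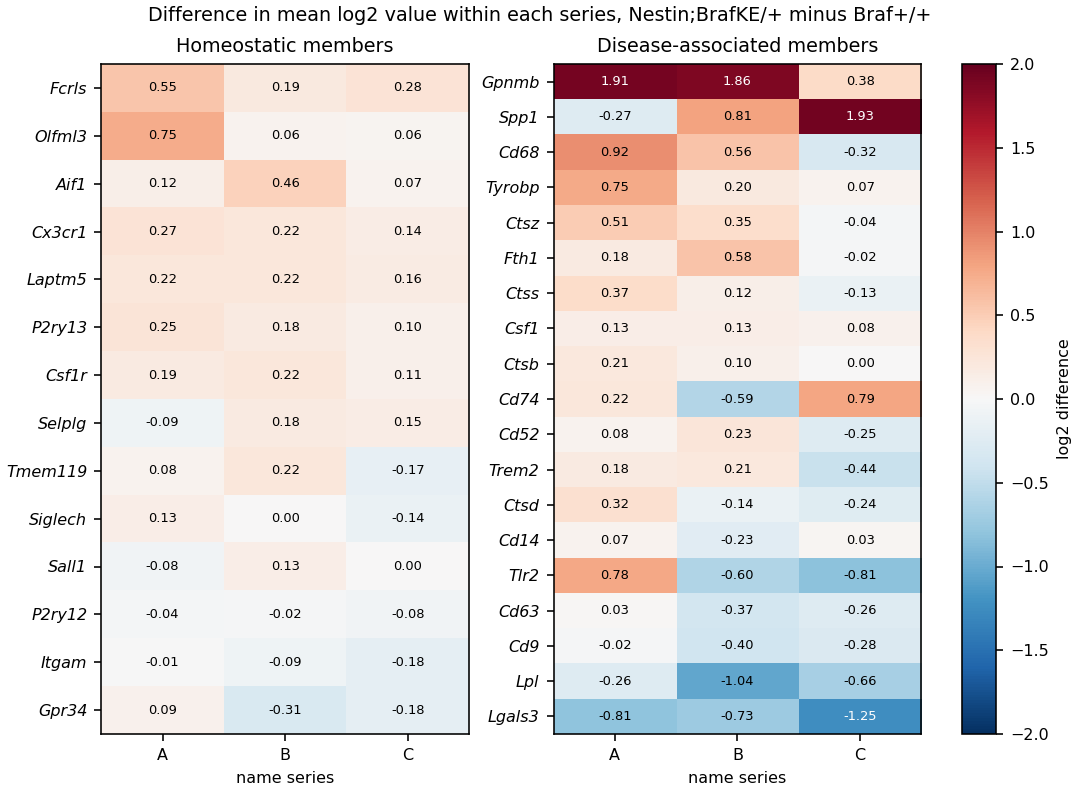
Difference in mean log2 value between Nestin;BrafKE/+ and Braf+/+ libraries within each series of library names (columns A, B and C), for each gene tested in the homeostatic (left) and disease-associated (right) set, ordered by log2 fold change. Red is higher and blue lower in Nestin;BrafKE/+. Series C, with 1 library of each genotype, is above 0 for 9 of 14 homeostatic but 7 of 19 disease-associated genes.

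Side by side, both sets had a median log2 fold change a little above that of all genes, 0.12 for the homeostatic and 0.088 for the disease-associated genes. Absolute differences were larger in the disease-associated set: the median absolute log2 fold change was 0.18, against 0.15 for the homeostatic set and 0.12 over all genes, but so was the error larger, with median SEs of 0.14, 0.098 and 0.10. The median of the homeostatic set was not below that of all genes. The medians of the homeostatic set were 0.13, 0.18 and 0.07 in series A, B and C, and those of the disease-associated set 0.18, 0.12 and -0.13. Homeostatic genes above 0 numbered 10, 11 and 9 of 14, and disease-associated genes 15, 11 and 7 of 19.

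The level of a set in a library was taken by centring each tested gene's log2 values on their mean and averaging over the genes. For the homeostatic set it was -0.11, -0.10, 0.01, -0.05 and -0.00 in Braf+/+ replicates 1 to 5 and 0.11, 0.00, 0.13 and 0.02 in Nestin;BrafKE/+ replicates 1 to 4. The highest control was therefore above the lowest mutant, and the genotypes overlapped by this measure. The summed normalised counts of the homeostatic set, which weigh high genes more, did not overlap, at 7658 to 8225 in the mutants and 6975 to 7561 in the controls. For the disease-associated set it was -0.13, -0.04, -0.10, -0.01 and 0.04 in the controls and 0.19, 0.00, 0.08 and -0.03 in the mutants, with a wider overlap. Nestin;BrafKE/+ replicate 1 had the highest level of the disease-associated set and mutant replicate 3 that of the homeostatic set.

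Genes around the 2 sets were counted in lists. Of all genes tested, 50.1% were above 0, 2.88% passed the threshold and 18.5% had an unadjusted p under 0.05. Of 20 other microglia-enriched genes, such as the complement genes C1qa, C1qb and C1qc, 14 had a log2 fold change above 0 and 0 passed the threshold in limma (6 had an unadjusted p under 0.05), with a median of 0.16. C1qb gave 0.28 (SE 0.09, adjusted p = 0.147) and C1qc 0.31 (SE 0.12, adjusted p = 0.203), with -0.04 and -0.16 in series C. Ltc4s, the leukotriene C4 synthase, gave -0.82 (SE 0.28, adjusted p = 0.153), the largest absolute value of the list, and was below 0 in all 3 series. Of 19 genes that regulate microglia, 11 were above 0 and 0 passed in limma, with a median of 0.05. An unadjusted p under 0.05 was given to 4 (21.1%), near the share of all genes. Spi1, which encodes PU.1, gave -0.58 (SE 0.21, adjusted p = 0.167), opposite in sign to its partner Irf8 at 0.31 (SE 0.17, adjusted p = 0.354). Smad3, a transducer of TGF-beta signals, gave -0.23 (SE 0.06, adjusted p = 0.0921), and the phosphatase gene Inpp5d 0.39 (SE 0.13, adjusted p = 0.142).

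Of 16 other genes of the disease-associated signature, 14 were above 0 and 2 rose past the threshold, with a median of 0.19. The level of this list did not overlap between genotypes, at -0.19 to 0.03 in the controls and 0.07 to 0.16 in the mutants. Lyz2, lysozyme of macrophages, measured 227, 224, 199.7 and 218 normalised counts in the mutants and 121, 153, 111, 137 and 129 in the controls. The groups were far apart, and the log2 fold change was 0.74 (SE 0.13, adjusted p = 0.0172 in limma). Reads of Lyz2 can be shared with its close copy Lyz1. Serpine2, a protease inhibitor that astrocytes and other glia also make, rose by 0.22 (SE 0.05, adjusted p = 0.0457). Igf1, a growth factor of the signature, stood on the other side at -0.51 (SE 0.16, adjusted p = 0.122), and Apoe, which astrocytes make in quantity, gave 0.14 (SE 0.06, adjusted p = 0.280).

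Of 25 further lysosome genes, 13 were above 0, the median was 0.05, and 1 rose past the threshold, Gaa, the acid alpha-glucosidase, at 0.27 (SE 0.06, adjusted p = 0.0449 in limma). Among the factors that drive lysosomal genes, Mitf gave -0.52 (SE 0.13, adjusted p = 0.0626), Tfeb -0.02 (SE 0.17) and Tfe3 0.06 (SE 0.09). Of 6 MHC class II genes 4 were above 0 and 0 passed in limma, and none had an unadjusted p under 0.05 (median 0.03).

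Markers of other cells in the tissue are given beside these values. All 7 tested markers of border-associated macrophages, the macrophages of meninges and vessels, which share many genes with microglia, were above 0, with a median of 0.34 and 0 past the threshold in limma (3 at an unadjusted p under 0.05). F13a1 gave 0.80 (SE 0.22, adjusted p = 0.0815), Lyve1 0.68 (SE 0.27, adjusted p = 0.206) and Stab1 0.37 (SE 0.13, adjusted p = 0.161). Their summed normalised counts ranged from 554 to 694 in the mutants and from 414 to 575 in the controls. Within series A, B and C, 3, 7 and 6 of the 7 border-associated macrophage markers were above 0, with medians of -0.054, 0.75 and 0.76. The part of these cells in the higher Lyz2 and Gpnmb was not tested, beyond a fit with their level as a covariate, in which Gpnmb stood at 1.58 on the log2 scale (adjusted p = 0.145). Monocyte, neutrophil and lymphocyte markers had 3 genes in the table and none with a mean of 10, and their sums reached at most 17.0 and 21.9 normalised counts in a library.

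Oligodendrocyte markers were above 0 in 12 of 12, and 4 rose past the threshold (Mobp, Mog, Mag and Cldn11), with a median of 0.29. Their level ranged from -0.32 to 0.06 in the controls and from 0.11 to 0.24 in the mutants, without overlap. Of 6 precursor markers 5 were above 0 and 1 rose, Cspg4, at 0.65 (SE 0.08, adjusted p = 0.00261 in limma). Astrocyte markers were above 0 in 8 of 10, with 2 called (Ndrg2 and Acsbg1) and a median of 0.23, and the level of that list ranged from -0.12 to -0.08 in the controls and from 0.10 to 0.16 in the mutants, without overlap. These glial lists had higher medians than either microglial set. Neuron markers were above 0 in 4 of 8 (median -0.05, 0 called in limma, 3 at an unadjusted p under 0.05). Endothelial and mural markers were above 0 in 8 of 10, meningeal markers in 6 of 7 with Col1a1 called (0.96, SE 0.18, adjusted p = 0.0214), and blood markers in 5 of 5, with 0 called in limma, 4 at an unadjusted p under 0.05 and a median of 0.43. Choroid plexus markers were above 0 in 0 of 9 and 0 were called in limma (3 at an unadjusted p under 0.05), with a median of -1.59. Many genes of the microglial sets are not specific to microglia. In fits with the level of the oligodendrocyte or of the astrocyte markers as a covariate, the median log2 fold change was -0.047 or 0.025 for the homeostatic and -0.020 or -0.20 for the disease-associated set, and these fits called 0 genes in the whole table. Both levels separated the genotypes, so these fits leave little of the genotype difference to estimate.

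**Figure D4:**
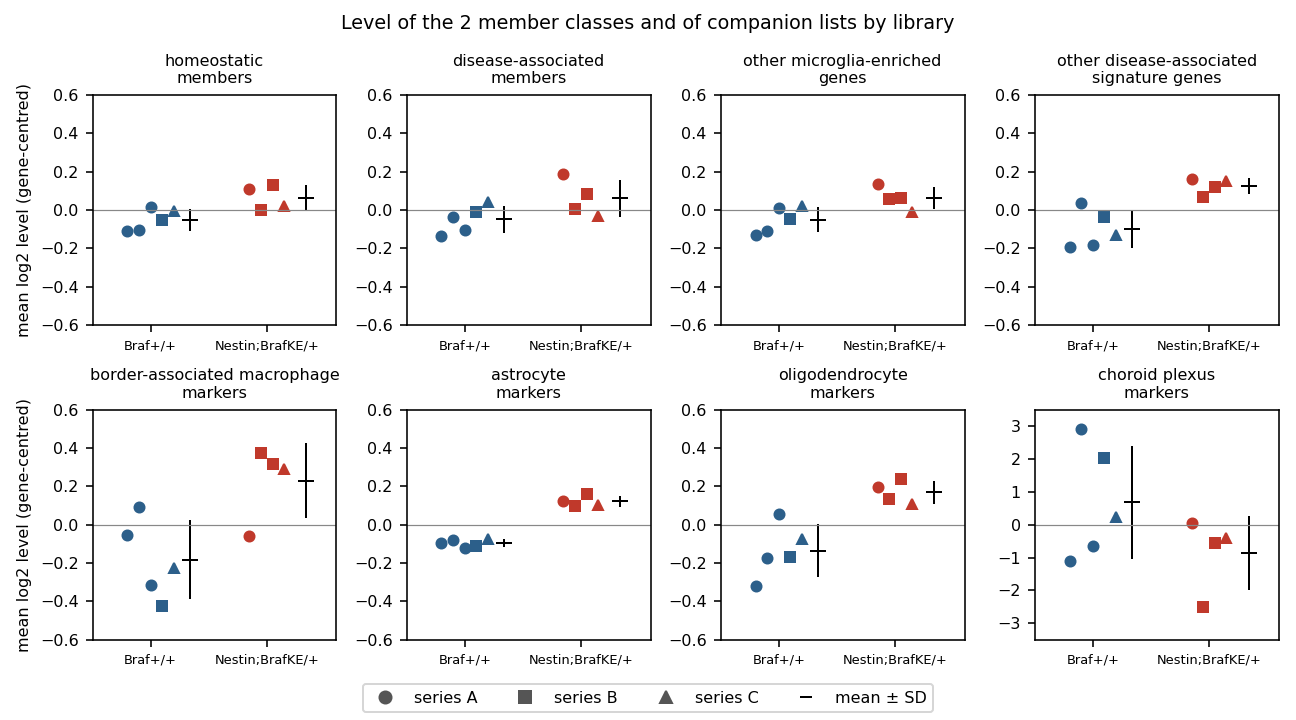
Level of the 2 sets and of 6 companion lists in each library (y axis, mean of gene-centred log2 values; the choroid plexus panel has a wider axis), with Braf+/+ in blue and Nestin;BrafKE/+ in red, symbols for the series and mean ± SD (n = 5 and 4). The levels of both microglial sets overlap between genotypes. Astrocyte markers separate them, at -0.12 to -0.08 in controls and 0.10 to 0.16 in mutants. So do oligodendrocyte markers (-0.32 to 0.06 and 0.11 to 0.24) and the other disease-associated signature genes (-0.19 to 0.03 and 0.07 to 0.16).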

How the data were processed

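Stranded mRNA libraries were prepared from the hippocampus of 4 Nestin;BrafKE/+ and 5 Braf+/+ male mice, 1 library per animal. The authors' pipeline combined TrimGalore, STAR alignment against GRCm39 and Salmon quantification. Batches, which the sources used here do not name, were adjusted for, and DESeq2 scaling was applied. The deposited table holds the resulting signal, 1 normalised count per gene and library, for 18275 genes. The values of each library were whole multiples of 1 step between 0.993 and 1.004 (100% within 0.01) but were not taken as reads, since the whole number of mt-Co1, 491938, did not vary over the 9 libraries, so the depth is unknown and no count model was used. Library totals ran from 19551312 to 20091532.

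Groups came from the labels, and every column was mapped to a sample. Genes with a mean of at least 10 were tested on log2(value + 1) with limma 3.58.1 in R 4.3.3 (lmFit, eBayes with trend), the model holding genotype and the 3 name series. A fold change on this scale understates the change of low genes. Two-sided p-values received a Benjamini-Hochberg adjustment across every gene tested, and 0.05 was the threshold. Single values were also tested by exact permutation over 126 assignments of the genotype and 24 within series. Within-series differences are of mean log2 values. P-values set the genotype difference against the spread between these animals, which the batch adjustment by the authors may have narrowed. Exon lengths and positions came from a Gencode annotation of GRCm39 newer than that of the study, and promoters from RefSeq, on another build.

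Per-library values are given for genes with an unadjusted p under 0.05, for the 3 genes with the highest mean in each set and for Csf1r, Trem2, Tyrobp, P2ry12 and Aif1. Of companion lists, genes past the threshold were to be named, up to 5 a list, and other genes named from them were chosen after their values were seen. Genes and lists were chosen with earlier results of these data known. No test was made over a set. Alternatives were 16 that kept all libraries, among them TMM factors, and 9 that left out 1. Python 3.11.15, with pandas 2.3.3 and matplotlib 3.10.9, served for tables and plots.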

Additional observations from a re-analysis of the deposited data

Results flagged for a closer look

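In 5 of 74 groups of libraries searched (35 genes in 2 genotypes, and the levels of the 2 sets), 1 library stood further from the rest than Dixon's criterion allows, and chance marks about 1 in 20. Selplg measured 467 normalised counts in Braf+/+ replicate 3, with 379 to 389 in the other controls. Clec7a measured 5.96 in Braf+/+ replicate 1, with 4.98 to 5.02 in the others, a gap of about 1 normalised count. Spp1 measured 281 in Braf+/+ replicate 2, the library with the most choroid plexus RNA, with 67.1 to 98.4 in the others. Ctsz measured 674 in Braf+/+ replicate 5, with 561 to 590.4 in the others. Tlr2 measured 31.1 in Nestin;BrafKE/+ replicate 1, with 15.0 to 17.0 in the other mutants.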

How the results depend on the processing

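Quantile normalisation, TMM factors, pseudocounts of 0.5 or 8, robust eBayes, no filter and a minimum mean of 50 left each tested gene of the 2 sets on its side of the threshold with its sign. Genes called in the homeostatic set, 0 in the fit reported, were 4 without the series term, 4 with a replicate block and 2 at an adjusted p under 0.1, and 0 without any 1 library. Those of the disease-associated set, 2, were 5 without the series term, 4 with the block, 0 with 4 name prefixes as the term, 1 with choroid plexus markers as a covariate, 0 with microglia-enriched, oligodendrocyte, astrocyte or border-associated macrophage markers, and 0 to 3 with 1 library left out (0 without Nestin;BrafKE/+ replicate 3 or Braf+/+ replicate 4). Over all genes the 466 became 2260, 1405, 165 (prefixes), 258 (array quality weights), 25, 0, 0 and 43 with microglia-enriched, oligodendrocyte, astrocyte and border-associated macrophage markers, 927 at an adjusted p under 0.1, and 42 to 371 with 1 library left out, lowest without Nestin;BrafKE/+ replicate 1.

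The medians with microglia-enriched, oligodendrocyte and astrocyte markers as covariates were 0.047, -0.047 and 0.025 for the homeostatic and -0.026, -0.020 and -0.20 for the disease-associated set, and with 1 library left out 0.06 to 0.17 and 0.01 to 0.15. Since the levels of the astrocyte and of the oligodendrocyte markers each separated the genotypes, those fits leave little of the genotype difference to estimate. The covariates for choroid plexus and border-associated macrophages were added after seeing the data. The cause of these changes was not tested.

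Signs that turned were all of genes that were not called, apart from Gpnmb. With astrocyte markers the log2 fold change was -0.10 for P2ry13, -0.67 for Tmem119, 0.0075 for Gpr34, -0.52 for Olfml3, -0.36 for Aif1, -0.024 for Trem2, -0.089 for Gpnmb, 0.39 for Cd14, -0.13 for Ctsb, -0.45 for Ctsd, -0.21 for Ctss, -0.36 for Ctsz, -0.29 for Fth1, -0.59 for Cd52, -0.050 for Csf1 and -0.20 for Cd74. With oligodendrocyte markers it was -0.066 for P2ry13, -0.11 for Tmem119, -0.068 for Sall1, -0.12 for Siglech, -0.012 for Olfml3, -0.15 for Selplg, -0.25 for Trem2, -0.16 for Ctsd, -0.020 for Ctss and -0.51 for Cd52. With microglia-enriched genes it was -0.034 for Tmem119, -0.11 for Siglech, -0.23 for Trem2, -0.17 for Ctsd, -0.026 for Ctss and -0.24 for Cd52. With border-associated macrophage markers it was -0.062 for Sall1, 0.090 for Gpr34, -0.32 for Spp1, 0.16 for Cd14, -0.20 for Cd74 and 0.39 for Tlr2. With choroid plexus markers it was -0.00033 for Siglech, -0.071 for Trem2, -0.061 for Cd52 and 0.11 for Tlr2. With 4 name prefixes it was -0.032 for Siglech, -0.053 for Trem2, -0.040 for Ctsd and -0.085 for Cd52, and with array weights -0.0081 for Trem2. Leaving out 1 library spanned 0 for Tmem119 (-0.022 to 0.14), Sall1 (-0.045 to 0.073), Siglech (-0.059 to 0.070), Trem2 (-0.070 to 0.19), Cd14 (-0.12 to 0.052), Ctsd (-0.18 to 0.10), Cd52 (-0.070 to 0.15), Cd74 (-0.16 to 0.45) and Tlr2 (-0.69 to 0.14).

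Same-numbered libraries of the 2 genotypes deviated from their group means with correlations of -0.39, -0.078, 0.069 and 0.41, so the numbers do not pair the animals. The replicate block replaced the series term, called Fcrls, Cx3cr1, Csf1r, Laptm5, Gpnmb, Lpl, Ctsz and Fth1, and left no sign changed. Depth is unknown, and genes near the minimum mean rest on few normalised counts.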
